A study of Mus musculus with 6 samples.

Results

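The mature microRNAs (miRNAs) of control macrophages activated with lipopolysaccharide (LPS) were described from 3 of the 6 arrays of a mouse study of Notch signalling. The 3 arrays were chosen by their titles, which name bone-marrow-derived macrophages of wild-type mice as replicates 1 to 3, and all 611 mouse entries of the array were ranked on each. Although titled wild type, the control mice are described in the protocol as MxCre-RBP-J f/+, that is, with floxed RBP-J on 1 allele and a Cre recombinase under the interferon-responsive Mx promoter. RBP-J is the DNA-binding partner of activated Notch receptors. The mice were female, of strain C57BL/6, and had received poly(I)-poly(C), which induces Cre, so the control macrophages may themselves lack 1 copy of RBP-J. Cells were exposed to LPS, a bacterial outer-membrane component, for 24 h. The other 3 arrays, of MxCre-RBP-J f/f macrophages with the same treatments, entered no comparison here, and no macrophages without LPS were analysed. The labels do not say whether the replicates came from separate animals or cultures, so the standard deviations below cover the spread between these samples, which may be technical.

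A miRNA gene is transcribed as a primary transcript that folds into a hairpin, and the enzymes Drosha and Dicer cut from it a short duplex with a 5p arm and a 3p arm. Usually 1 arm is loaded into an Argonaute protein and guides it to messenger RNAs, while the other, written with a star in older names, is degraded. Pairing of the seed, bases 2 to 8 of the mature miRNA, with the messenger largely decides which transcripts are repressed, so miRNAs with the same seed are grouped as a family. In macrophages, Toll-like receptor signalling is known to switch on miR-155, miR-146a and miR-21, which adjust the strength and length of the inflammatory response.

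The mature sequences below carry most of the signal described here. They were taken from RefSeq (table of GRCm38.p6), are written 5′ to 3′, and have the seed in capitals. The first set holds the brightest miRNA, the members of the miR-23/27/24 polycistrons for which the table gave a sequence, and 4 miRNAs of myeloid cells or of LPS activation. The paired miR-27 sequences are set next to each other because they share a seed.
miR-21: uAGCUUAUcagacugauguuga
miR-24: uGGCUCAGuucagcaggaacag
miR-23a: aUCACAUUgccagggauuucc
miR-27a: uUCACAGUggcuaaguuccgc
miR-27b: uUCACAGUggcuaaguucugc
miR-223: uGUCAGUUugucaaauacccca
miR-142-3p: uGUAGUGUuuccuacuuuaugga
miR-155: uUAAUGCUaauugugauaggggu
miR-146a: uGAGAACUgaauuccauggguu

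The second set shows the families with several bright members, let-7 with the seed GAGGUAG and miR-15/16 with the seed AGCAGCA. Within each family the capitals are the same and the remaining bases differ.
let-7f: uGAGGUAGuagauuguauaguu
let-7i: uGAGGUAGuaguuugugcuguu
let-7a: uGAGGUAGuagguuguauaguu
let-7d: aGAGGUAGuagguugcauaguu
miR-16: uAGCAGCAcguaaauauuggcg
miR-15a: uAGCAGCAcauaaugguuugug
miR-15b: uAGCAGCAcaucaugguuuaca

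Most mouse entries gave no detected signal. The scanner software called 162, 159 and 168 entries detected on replicates 1, 2 and 3, a mean of 163 ± 4.58 (SD, n = 3). Of the 611 entries, 150 were detected on all 3 arrays (24.5%), 13 on 2, 13 on 1 and 435 on none. The entries detected on all 3 arrays held 99.3% ± 0.177 (SD, n = 3) of the summed mouse signal, which was 66381, 63437 and 77705 intensity units. Replicate 3 was the brightest array, and signals are therefore given also as a share of each array's summed mouse signal. The total of a miRNA is the sum over its 1 to 4 probes, each printed in 5 to 20 spots, and no mouse spot was saturated. A signal share is not a share of molecules, because probes bind their targets with different strength. Among the 20 brightest miRNAs the brightest probe exceeded the dimmest probe of the same miRNA by 1.18-fold for miR-15a up to 5.07-fold for miR-146a. The order below is thus an order of signal.

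Detection ended at a low signal. The dimmest entries detected on all 3 arrays were miR-342-5p (4.0, 4.3 and 2.1 units), miR-712, miR-21* (4.0, 1.8 and 6.0 units), miR-29b* and miR-532-3p. The brightest that missed detection on 1 array or more were miR-134 (3.3, 10.9 and 23.5 units), miR-668, miR-129-3p, miR-466i and miR-700. These outside entries had higher mean signals than those inside, so presence near this edge is not an order of level. Of 39 viral miRNA entries, which serve here as a background since the labels name no infection, 2 were detected on all 3 arrays (5.13%), and the brightest viral signal was 38.0 units. On every array 73 of the 150 mouse entries lay above that array's brightest viral entry and carried 97.2% of the signal. The other 77 were not above the brightest viral entry on every array. That entry was mghv-miR-M1-2 on all 3 arrays, and no other viral signal passed 14.8 units. The line used below thus rests on 1 entry. The array's negative-control entry gave 13.0, 31.4 and 21.4 units and was not detected.

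miR-21 alone gave close to as much signal as all other mouse miRNAs together. This miRNA is induced downstream of Toll-like receptors and STAT3 and represses PDCD4. Its totals were 28043, 29742 and 35238 units on replicates 1, 2 and 3, or 42.2%, 46.9% and 45.3% of the signal, with a mean of 44.8% ± 2.36 (SD, n = 3). It ranked first on all 3 arrays, at 10.54, 11.2 and 8.58 times the next brightest entry. The share depends on the background subtraction: it was 26.9% with raw signal and 22.4% with the normexp correction and its offset, and miR-21 ranked first with both. The remaining 55.2% was spread over many miRNAs. The brightest 3 entries reached 50% of the signal, the brightest 29 reached 90% and the brightest 49 reached 95%. The 10 brightest held 70.6% ± 1.24 and the 20 brightest 83.3% ± 1.23 (SD, n = 3).

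**Figure D1:**
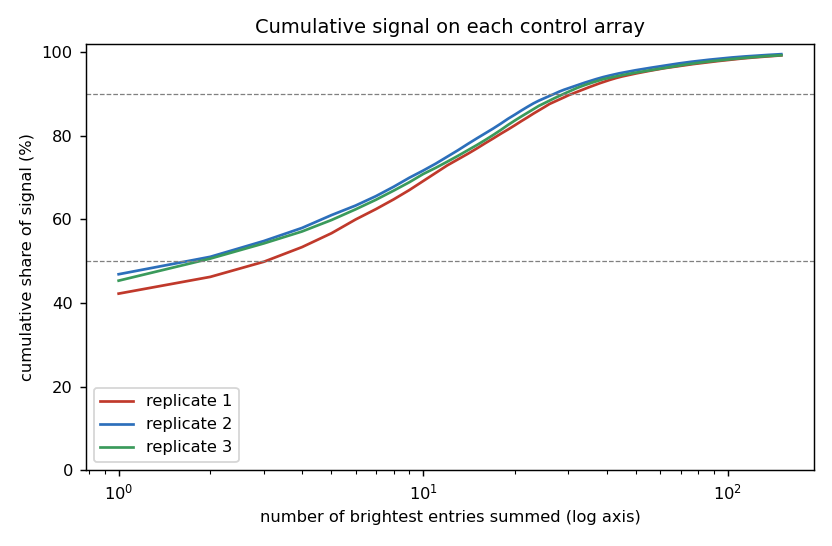
Cumulative share of the summed mouse miRNA signal in percent (y axis) against the number of brightest entries summed on a log axis (x axis), 1 line per control array, with dashed lines at 50% and 90%. The lines start at 42.2% to 46.9%, the share of miR-21, and lie close together.

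The second brightest entry by mean share was miR-1224, a mirtron, that is, a miRNA spliced out as a short intron. Its totals were 2322, 2647 and 4105 units, or 3.50%, 4.17% and 5.28% of the signal. It was highest on replicate 3 and ranked 4th, 2nd and 2nd. Its mature sequence had a GC content of 66.7%, against a median of 40.9% over the 20 brightest entries with a sequence.

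Next by mean share came miR-24 and miR-23a, while miR-23b stood 8th. These miRNAs are made from the miR-23a-27a-24 and miR-23b-27b-24 transcripts and are known as regulators of haematopoietic and myeloid differentiation. miR-24 gave 2407, 2402 and 2829 units, a share of 3.68% ± 0.0886 (SD, n = 3), and ranked 3rd on every array. miR-23a gave 2207, 1979 and 2131 units (3.06% ± 0.295) and miR-23b 1653, 1433 and 1693 units (2.31% ± 0.161). These 3 shares varied little among the arrays.

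miR-27a and miR-27b, from the same transcripts, were dimmer and more variable. miR-27a gave 525.7, 1099 and 939.1 units (0.792%, 1.73% and 1.21%) and miR-27b 592.2, 949.5 and 1032 units (0.892%, 1.5% and 1.33%). Both were lowest on replicate 1. The 5 entries of miR-23, miR-27 and miR-24 together held 11.1%, 12.4% and 11.1% of the signal, a mean of 11.5% ± 0.741 (SD, n = 3). With raw and normexp-corrected signal it was 7.28% and 6.14%. miR-27a and miR-27b differed by 1 base, so the sum may count some molecules under both, which was not tested. The array cannot say which of the 2 transcripts gave miR-24, whose mature sequence is the same from both.

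The 7 miRNAs of the myeloid list were all detected. miR-22, which is abundant in blood cells and targets TET2, gave 2185, 1951 and 1990 units (2.98% ± 0.375). miR-223, the miRNA most closely tied to granulocytes and monocytes, gave 2662, 1451 and 1539 units, or 4.01%, 2.29% and 1.98%. It ranked 2nd on replicate 1, 6th on replicate 2 and 10th on replicate 3, so its place depended on the array. miR-142-3p, expressed throughout the blood lineage, gave 763.5, 857.2 and 1074 units (1.29% ± 0.126), and miR-342-3p gave 665.7, 739.5 and 501.6 units (0.938% ± 0.266). With miR-24, miR-142-5p and miR-342-5p, the 7 miRNAs of the list held 11.7% ± 1.43 of the signal (SD, n = 3). All 7 of 7 were detected on all 3 arrays, against 24.5% of all mouse entries. Of these, miR-342-5p lay at the edge of detection, at 2.1 to 4.3 units. The brightest by mean share were miR-24 (3.68%) and miR-22 (2.98%). The list was chosen with earlier results of these data known, so its detection is not an independent check.

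Of 9 miRNAs listed as induced by LPS or NF-κB, 6 were detected on all 3 arrays and 3 on none, against 150 and 435 of all 611 mouse entries. This list, also chosen with earlier results of these data known, held 48.2% ± 1.76 of the signal (SD, n = 3), nearly all of it miR-21. miR-155, which represses SHIP1 and SOCS1 and supports inflammatory activation, gave 1327, 976.2 and 1158 units, or 2.00%, 1.54% and 1.49%. miR-146a, which represses IRAK1 and TRAF6 and so dampens Toll-like receptor signalling, gave 943.4, 433.3 and 928.8 units, or 1.42%, 0.683% and 1.20%. It was lowest on replicate 2 but above the closely related miR-146b on every array. miR-146b gave 350.6, 352.4 and 454.6 units (0.556% ± 0.0284).

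The pair miR-132 and miR-212, transcribed together under the factor CREB, was much dimmer. miR-212 gave 33.9, 22.6 and 41.9 units and miR-132 gave 24.6, 13.9 and 12.3 units. Neither lay above the brightest viral entry on every array. miR-9, miR-147 and miR-187 had totals below 0 on all 3 arrays after background subtraction. No unstimulated cells were compared, so none of these levels shows induction.

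The let-7 miRNAs, which accumulate in differentiated cells and are blocked by LIN28 in stem cells, took 4 of the 20 highest places. let-7f gave 1541, 1422 and 2212 units (2.47% ± 0.329), let-7i 1471, 1359 and 1786 units (2.22% ± 0.0782) and let-7a 1446, 1056 and 1551 units (1.95% ± 0.261). let-7d gave 883.3, 618.6 and 926.2 units (1.17% ± 0.179). The shares of let-7f and let-7i overlapped among the arrays, and so did those of let-7i and let-7a. Within each of the 3 arrays, however, let-7f was above let-7i and let-7i above let-7a.

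The other entries among the 20 brightest were miR-29a, miR-720, miR-16 and miR-15a. miR-29a, which represses collagens and DNA methyltransferases, gave 858.8, 1045 and 1139 units (1.47% ± 0.177). miR-16 gave 842.7, 731.2 and 980.9 units (1.23% ± 0.0655) and miR-15a 596.9, 776.3 and 956.2 units (1.12% ± 0.189); both repress BCL2 and cyclins. They share a transcript, and miR-16 is also made from another together with miR-15b. miR-720 gave 1158, 624.4 and 750.6 units (1.23% ± 0.444), highest on replicate 1. It is an entry of the array that was later withdrawn from miRBase as a fragment of a transfer RNA.

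**Figure D2:**
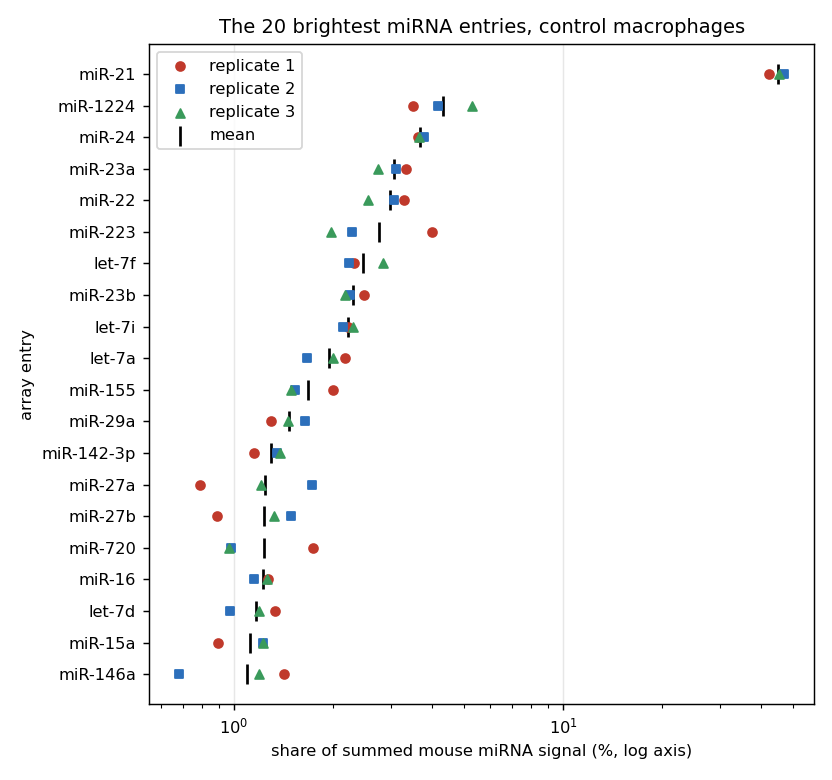
Share of the summed mouse miRNA signal in percent on a log axis for the 20 brightest entries, 1 point per control array. miR-21 stands apart at 42.2% to 46.9%, while the shares of miR-223, miR-27a, miR-720 and miR-146a are spread widest among the arrays.

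Grouped by seed, the order of the miRNAs below miR-21 was different. RefSeq gave a sequence for 124 of the 150 entries detected on all 3 arrays, and for 139 of all those detected on any. These 139 held 93.9% of the signal and fell into 101 seed families, 21 of them with more than 1 entry. The 10 brightest families held 79.6% ± 1.96 (SD, n = 3). Among the 139 matched entries, miR-21 was the only one with its seed AGCUUAU.

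The let-7 family stood second with 10.7%, 8.96% and 10.6% of the signal, a mean of 10.1% ± 0.975 (SD, n = 3). Its 9 entries, let-7a, let-7b, let-7c, let-7d, let-7e, let-7f, let-7g, let-7i and miR-98, were all detected on all 3 arrays. Families hold only matched entries detected on some array, and 124 of those 139 were detected on all 3. Its signal was divided among them, and let-7f, the brightest, held 24.5% of the family. The 9 sequences lay 1 to 6 single-base edits from each other, and let-7f and let-7a differed by 1. A probe for 1 member may therefore also bind another, which was not tested. A molecule bound by the probes of several members would add to each of them, so the family total may be too high.

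The miR-15/16 family, with 5 entries (miR-16, miR-15a, miR-15b, miR-322 and miR-195), held 3.33% ± 0.117 and ranked 5th among the families. miR-16 gave 36.9% of it. miR-27a and miR-27b together held 2.48% ± 0.774, in nearly equal parts (50.1% from miR-27a), and their sequences differed by 1 base. The miR-29 family held 2.13% ± 0.274, of which miR-29a gave 69.0%, followed by miR-29b and miR-29c. The miR-146 pair held 1.66% ± 0.371, with 66.4% from miR-146a. miR-221 and miR-222, which share a transcript and repress KIT and the cell-cycle inhibitor p27, held 1.57% ± 0.171. miR-1224, miR-24, miR-23a, miR-22 and miR-223, the remaining families among the 10 brightest, were each the only matched entry of their seed. With miR-23b joined to miR-23a by name, a choice made after seeing the data, the miR-23 pair held 5.37% in place of 3.06%.

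**Figure D3:**
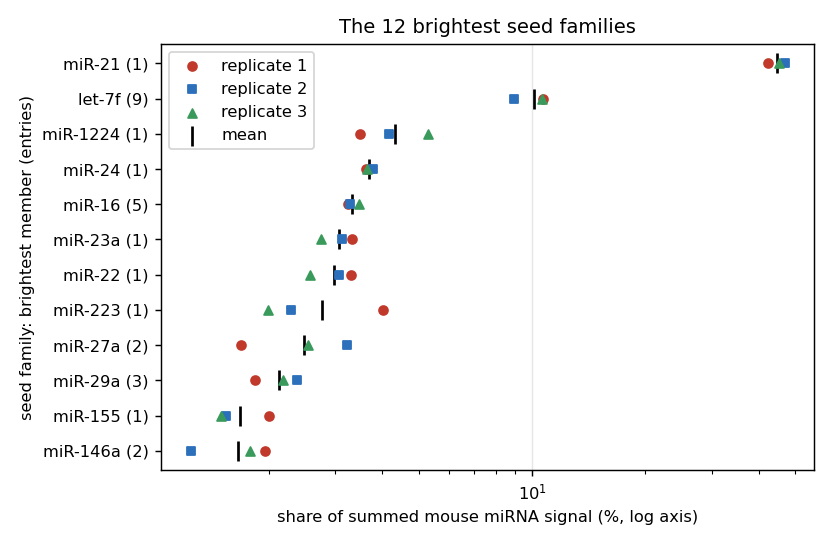
Share of the summed mouse miRNA signal in percent on a log axis for the 12 brightest seed families, 1 point per control array, with the number of entries in each family in brackets. The let-7 family with 9 entries follows miR-21 at 8.96% to 10.7%, above every single miRNA other than miR-21.

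Many of the bright entries with a matched sequence began with uridine. A 5′ uridine is known to favour binding to Argonaute. Of 124 matched entries detected on all 3 arrays, 61 began with U (49.2%), and they carried 82.3% of the matched signal, a value in which miR-21 weighs most. Among the 20 brightest matched entries 15 did so (75.0%). Over all 1679 mature mouse sequences of the table the share was 40.9%, and over the 576 numbered under 650 it was 34.5%. Median GC content was 47.6% for the detected entries, 40.9% for the 20 brightest, 52.2% for all sequences of the table and 45.5% for those numbered under 650.

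Entries with high numbers, which were annotated later and are often rodent-specific, included 2 of the 20 brightest, miR-1224 and miR-720. Of 156 entries numbered 650 or more, 25 were detected on all 3 arrays (16.0%), against 125 of 455 with lower numbers or let-7 names (27.5%). The late entries held 7.98% ± 0.821 of the signal (SD, n = 3), most of it from miR-1224 and miR-720. Median GC was 61.4% over the 16 late entries with a sequence and 45.5% over the 108 others. Whether GC content bears on their signal was not tested.

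The ranking was shared among the arrays, most closely by replicates 2 and 3. Across the 150 entries detected on all 3 arrays, which are not independent of each other, Spearman's rho was 0.987 between replicates 2 and 3, 0.956 between 1 and 2 and 0.95 between 1 and 3. Across the 50 brightest it was 0.983, 0.930 and 0.932. The 10 highest places were held by 11 entries, 9 of them on all 3 arrays; let-7a and miR-27a held a place on some arrays. The 20 highest places were held by 23 entries, 14 of them on all 3 arrays, and the 50 highest by 54 entries, 46 of them on all 3.

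An entry's lowest and highest rank among the 150 lay 8 places apart at the median. For 52 entries the distance was 5 places or fewer and for 11 it was 30 or more. The largest distance, 58 places, belonged to miR-483, made from an intron of the Igf2 gene, which ranked 125th, 83rd and 67th. Relative spread depended little on brightness: the median coefficient of variation of the share was 16.1% over the 50 brightest entries, 14.3% over the 50 in the middle and 19.7% over the 50 dimmest. The scanner software's own error for the 20 brightest entries was 7.11% to 8.53% of their signal.

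The most even shares were those of miR-17*, miR-24, miR-222, miR-34b-5p and miR-191*, whose log2 shares had SDs of 0.03 to 0.05 (n = 3). They included bright entries, such as miR-222 at 0.537%, 0.518% and 0.512%, and dim ones, such as miR-17* at 8.3, 7.7 and 9.5 units. miR-17*, miR-34b-5p and miR-191* lay below the brightest viral entry on every array. The software's own error for miR-191* was 12.5%, against a coefficient of variation of its share of 3.44%. Its small spread over 3 arrays therefore does not show a precise level. The least even were miR-466f-3p (SD 1.29 on the log2 scale), miR-210 (1.18), miR-483 (1.03), miR-532-3p (0.85) and miR-721 (0.84). Of these, miR-466f-3p and miR-532-3p lay below the brightest viral entry on every array. miR-483 lay below it on replicates 1 and 2 and miR-721 on replicate 1. How much background added to these spreads was not tested.

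miR-210, which hypoxia switches on through HIF-1, gave 255.9, 65.6 and 66.4 units, or 0.386%, 0.103% and 0.0854% of the signal. It was high on replicate 1 alone, and its mean share of 0.191% was 0.0945% without that array. miR-466f-3p, from a rodent repeat cluster, gave 22.8, 3.7 and 9.0 units, and its mean share of 0.0172% was 0.00869% without replicate 1. miR-483 gave 12.8, 27.9 and 61.9 units, and its mean share of 0.0477% was 0.0316% without replicate 3. These were the 3 detected entries whose mean share moved by over 1.5 times when 1 array was left out.

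Replicate 1 was the array that differed most from the others. It was the farthest of the 3 for 83 of the 150 entries, replicate 2 for 39 and replicate 3 for 28. On the log2 scale 95 entries had a higher share on replicate 1 than the mean of the other two and 55 a lower one, with a median difference of 0.19. miR-21 held 42.2% on replicate 1 against 46.9% and 45.3% on replicates 2 and 3, and its lower share leaves more for other entries. How much of the median difference this made was not tested. Past 1.5-fold on that scale, 23 entries were higher on replicate 1, among them miR-223, miR-720, miR-146a, let-7e, miR-652, miR-125a-5p and miR-210. A further 15 were lower, among them miR-27a, miR-27b, miR-1897-5p, miR-188-5p and miR-7a. Median GC content was 50% in the higher and 51.2% in the lower set, and 45.5% among the other entries. The hur_ control spots of the array, other than hur_5, which was not detected, were 1.74-fold to 2.60-fold as bright on replicate 1 as the mean of replicates 2 and 3, while the mr_1 and bright-corner spots were at 1.22-fold and 1.20-fold. Their part in the result was not tested.

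**Figure D4:**
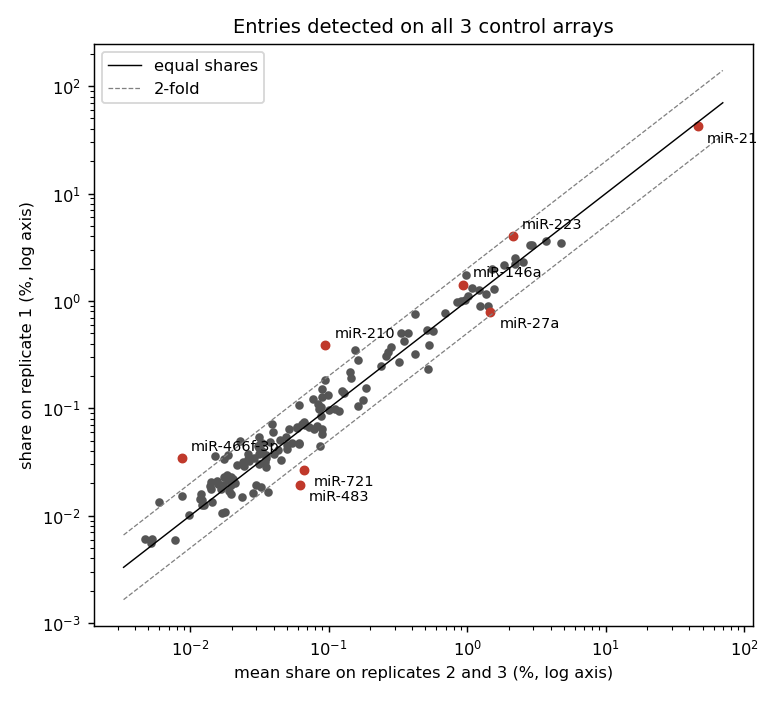
Share of signal on replicate 1 (y axis) against the mean share on replicates 2 and 3 (x axis), both in percent on log axes, for the 150 entries detected on all 3 arrays; the solid line marks equal shares and the dashed lines 2-fold. miR-210 and miR-466f-3p lie above the upper dashed line and miR-483 and miR-721 below the lower one, while miR-21 lies near the line of equal shares.

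In most hairpins with a detected arm, the other arm was not detected on every array. The array held 177 pairs of arms, and in 79 of them at least 1 arm was detected on all 3 arrays. The same arm led on all 3 arrays in 78 of these 79, pairs near background included. This count follows largely from the choice of pairs with 1 arm detected throughout, and it does not show a stable choice of arm. Of 54 pairs named with a star, the starred arm was the dimmer in all but 6, and in 41 the dimmer arm was detected on no array. Of 25 pairs named 5p and 3p, the 3p arm was brighter in 11. The arm of a name without a suffix was taken from nomenclature, since the files used here give no probe sequences.

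In 15 pairs both arms were detected on all 3 arrays, though in 13 of them the dimmer arm lay below the brightest viral entry on every array. For such pairs the leading arm is given against that viral entry, as a lower bound for its lead, and the bound sets the probes of different miRNAs against each other. miR-21 was at least 760-fold brighter by this measure, with miR-21* at 1.8 to 6.0 units, near the edge of detection. miR-24 was at least 65.3-fold brighter than miR-24-1* and miR-24-2*. miR-22 and let-7f led their starred arms by at least 52.3-fold and 41.8-fold. For miR-342-3p, miR-29b and let-7b the bounds over the other arm were 13.2-fold, 6.96-fold and 5.86-fold.

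miR-142-5p, at 30.6, 38.1 and 48.4 units, lay above the viral entries on 2 arrays, and miR-142-3p exceeded it by 22.5-fold and 22.2-fold there and by at least 20.7-fold on replicate 1. For miR-324, miR-362 and the miR-290 pair, from a cluster known from embryonic stem cells, both arms lay below the brightest viral entry on all 3 arrays, at 4.54 to 25.2 units, so their ratios carry no order of the arms. miR-532-5p and miR-483 were above it on 1 array each and their other arms on none. miR-483 gave 12.8, 27.9 and 61.9 units and miR-483* gave 15.2, 12.3 and 15.4 units, which was the 1 pair whose order differed between arrays.

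miR-140 was the pair in which both arms lay well above the viral entries and the starred arm led. miR-140*, the 3p arm, gave 187.5, 114.3 and 113.8 units and miR-140 gave 127.3, 100.7 and 102.8 units. The ratio was 1.47, 1.14 and 1.11, on the same side on all 3 arrays but within the differences found between probes of 1 miRNA. The sequence of the leading arm, with its seed in capitals, is shown because it is the arm called a star.
miR-140*: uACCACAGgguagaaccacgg

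In the other 5 pairs led by the star, the unstarred arm was not detected on all arrays. miR-674* gave 47.5, 24.1 and 31.2 units while miR-674 stood between -1.3 and 0.1 units, though the software called it detected on 2 arrays. miR-877*, from a mirtron, gave 29.7, 16.9 and 27.2 units, and miR-877 was detected on none. miR-17*, miR-191* and miR-467a* gave 7.7 to 16.8 units. None of these 5 starred arms lay above the brightest viral entry on every array. miR-17 lay below 0 on all 3 arrays and miR-191 at 4.6, 0.9 and 6.9 units was not detected, although both are commonly abundant miRNAs. Whether the probes for these entries respond to their miRNA was not tested.

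**Figure D5:**
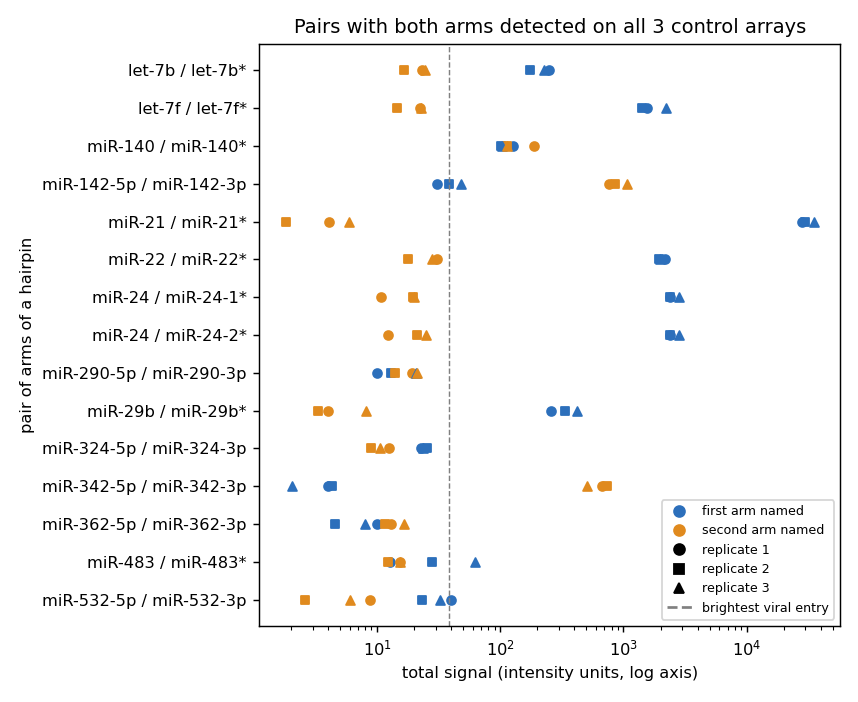
Total signal in intensity units on a log axis for the 15 pairs with both arms detected on all 3 control arrays, blue for the first arm named, orange for the second, and 1 symbol per replicate; the dashed line marks the brightest viral entry at 38.0 units. miR-140 and miR-140* overlap to the right of that line, while miR-21* lies at 1.8 to 6.0 units, far left of miR-21.

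Entries listed for 1 primary transcript did not give equal signals, and such ratios also carry the differences between probes. The miR-23a-27a-24 members held 7.99% ± 0.566 of the signal and spanned 2.96-fold. The miR-23b-27b-24 members held 7.23% ± 0.277 and spanned 2.97-fold. Both sums hold all of the miR-24 signal, so they overlap. miR-24 is the brightest member in both spans, so neither span belongs to 1 transcript alone. let-7a, let-7f and let-7d, which share a transcript, held 5.58% ± 0.616 with a span of 2.12-fold, and miR-221 and miR-222 spanned 2.01-fold. miR-15a and miR-16 held 2.35% ± 0.164 with 1.099-fold, although miR-16 is also made together with miR-15b. How much of these signals came from other transcripts was not tested. miR-106b, miR-93 and miR-25, the miR-106b-25 cluster linked to proliferation, were detected in 3 of 3, against 24.5% of all mouse entries. They spanned 1.20-fold at 0.204% ± 0.0099 (SD, n = 3).

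The related miR-17-92 cluster was only partly detected. miR-20a gave 73.5, 54.0 and 63.4 units, miR-19b 64.7, 54.8 and 65.0 units, and miR-92a 81.0, 51.8 and 55.9 units, all above the viral entries. miR-18a and miR-19a, at 3.8 to 8.9 units, were detected on 1 array each, and miR-17 on none. The 6 members together held 0.290% ± 0.0487 (SD, n = 3). In the miR-106a-363 cluster miR-20b was detected and miR-18b and miR-363 were not; miR-106a was not on the array.

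The paralogous miR-99b-let-7e-125a and miR-99a-let-7c-125b clusters, which are tied to haematopoietic progenitors, were both detected. The members miR-99b, miR-125a-5p and let-7e together held 1.29%, 0.596% and 0.745%, a mean of 0.877% ± 0.365 (SD, n = 3), and spanned 4.35-fold. The cluster was highest on replicate 1. miR-99a, let-7c and miR-125b-5p held 0.437% ± 0.0442, most of it from let-7c at 279.0, 211.6 and 283.7 units. miR-99a, at 13.8, 9.5 and 10.4 units, lay below the brightest viral entry on every array, so no span is given. How much of the let-7c signal comes from its relatives was not tested.

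In 5 further pairs both members were detected: miR-15b with miR-16, miR-29a with miR-29b, miR-29b with miR-29c, miR-181a with miR-181b, and miR-132 with miR-212. The first 3 pairs spanned 1.38-fold, 3.04-fold and 2.74-fold. miR-16 and miR-29b belong to more than 1 pair, and their signal was not divided between transcripts. In the last 2 pairs miR-181b, miR-132 and miR-212 were not above the brightest viral entry on every array, and no span is given. In the miR-191-425, miR-322-503 and miR-195-497 pairs only miR-425, miR-322 and miR-195 were detected. The miR-143-145 and miR-144-451 pairs gave no detected member. Beside these clusters and pairs, 24.5% of all 611 mouse entries were detected on all 3 arrays and 435 on none.

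Lists of markers of other cells were set beside the label of the tissue. Whether the probes of undetected markers respond to their miRNA was not tested. Of the defining miRNAs of erythroid cells or platelets (miR-451, miR-144 and miR-486), endothelium (miR-126-3p and miR-126-5p), muscle (7 entries, miR-1 and miR-133a among them), epithelium (6 entries of the miR-200 group and miR-205), liver (miR-122) and pancreas (miR-375), none was detected on any of the 3 control arrays. Their highest single signal was 7.03 units, in the muscle list. Of all 611 mouse entries, 435 were detected on no array, so a lack of detection was the more common outcome. Of 7 stromal entries, among them miR-143, miR-145 and miR-214, miR-199a-3p was detected on replicate 1 at 8.8 units, and the summed share of the list was 0.0307%, 0.00722% and 0.0106% on replicates 1, 2 and 3.

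Of 5 lymphoid entries, miR-150, the defining miRNA of mature lymphocytes, miR-181c and miR-181d were not detected. miR-181a gave 92.4, 78.3 and 106.1 units and miR-181b 22.0, 28.3 and 35.2 units, and the list held 0.183% ± 0.00754 of the signal (SD, n = 3). In the neural list miR-124, miR-9, miR-9* and miR-129-5p were not detected and miR-128 gave 9.5, 6.0 and 10.9 units. In the pluripotency list 1 of 10 entries was detected, miR-290-5p at 9.98, 12.9 and 20.8 units, below the brightest viral entry. Of 5 progenitor entries, miR-10a gave 100.3, 59.4 and 65.3 units, miR-125b-5p 28.0, 29.7 and 41.7 units and miR-99a at most 13.8 units, while miR-196a and miR-196b were not detected. Entries of the lymphoid and progenitor lists were thus detected beside those of the myeloid list. Among all 611 mouse entries, 24.5% were detected on all 3 arrays and 435 on none. In RNA from many cells, fewer cells of a type and less RNA per cell cannot be told apart.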

How the data were processed

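Each sample's total RNA, labelled with Cy3 per the labels, was hybridised to its own Agilent mouse miRNA array (design 021828 in the file headers). The deposited gene-level tables hold each miRNA's total intensity, summed over its probes after background subtraction and spatial detrending, and a detection call, as made per the file headers by version 10.5.1.1 of Feature Extraction; the submitters' processing notes name Agilent Feature Extraction 9.1. These intensities are not normalised between arrays and can be negative (247 to 310 of 611 mouse entries per array). The authors' deposited value table is on the log2 scale; how it was normalised is not stated in what was read here. Its values correlated with the log2 totals at 0.99911 or more over signals above 5, had medians of 0.0010, 0.026 and 0 over mouse entries on replicates 1, 2 and 3, and served as an alternative. They thus follow the totals without centring of single miRNAs, and direction does not apply to 1 dye; 0 columns belonged to no sample.

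Shares are of the summed mouse totals, with negative totals set to 0. Seeds are bases 2 to 8 of RefSeq's mature sequences (table of GRCm38.p6), matched by name, and their ends may differ from those of the array's design. Arms, polycistrons and cell type lists were written by hand from nomenclature and textbook knowledge. Means and SDs are over 3 arrays, whose number limits the precision, and no test was made, since no groups were compared. Named were the 20 brightest entries, the 10 brightest seed families, hairpins with both arms detected or a brighter star, the 5 most and 5 least even entries, the 5 on each side of detection and the detected members and defining markers of each list; others were chosen after their values were seen. The members and lists were chosen with earlier results of these data known. The alternatives were spot-level signals, the series matrix, raw and normexp-corrected signals (limma 3.58.1 in R 4.3.3, offset 50), other denominators and detection rules, and leaving out each array. Calculations used Python 3.11.15 with pandas 2.3.3 and were checked on simulated arrays.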

Additional observations from a re-analysis of the deposited data

Results flagged for a closer look

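Signal appeared in entries for miRNAs of viruses, which the labels do not name as present. Of 39 viral entries, mghv-miR-M1-2, of murine gammaherpesvirus 68, was detected on all 3 control arrays at 36.9, 29.6 and 38.0 units, a mean of 34.8 ± 4.59 (SD, n = 3). The entry mcmv-miR-M23-1-5p, of mouse cytomegalovirus, was detected on all 3 at 13.6, 9.20 and 11.8 units, a mean of 11.5 ± 2.23 (SD, n = 3). The source of this signal was not tested.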

How the results depend on the processing

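No paired analysis was possible because no groups were compared. miR-21 stayed first under the main setting and the 7 other ways of taking or scaling signal that were run, and the 20 brightest entries were the same in all but the ranking without entries numbered 650 or more, which kept 18. Its share moved from 44.8% to 41.5% in the authors' series matrix, 26.9% with no background subtraction, 22.4% with normexp correction and its offset, and 48.7% without the late-numbered entries, which shortens the denominator; the cause of the first of these was not tested. Raw and normexp-corrected signals keep some background in every dim entry, which enters the denominator. The miR-23, miR-27 and miR-24 entries together moved from 11.5% to 7.28%, 6.14% and 12.5% with no background subtraction, with normexp and without late-numbered entries. The let-7 family held 2.47% by its brightest entry alone. The lowest rank correlation between arrays was 0.930 over the 50 brightest entries, which are fewer. Brighter stars numbered 1 where both arms had to be detected on all arrays. Leaving out each array gave 43.8% to 46.1% for miR-21, 9.79% to 10.6% for let-7, 11.1% to 11.8% for miR-23, miR-27 and miR-24, and 0.95 to 0.987 for the lowest rank correlation, the highest without replicate 1. Detection numbered 115 with the spot-level flag, 163 on at least 2 arrays and 176 on at least 1. Of 279 other alternative values, 235 moved by less than 1 SD and 44 by more, 34 of these with raw or normexp-corrected signal. Signal over background limits the 77 detected entries that were not above the brightest viral entry on every array.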

Other observations

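Entries of 1 polycistron did not always stand on the same side of the other arrays on replicate 1, a pattern noticed after the values were seen and given without a test. In the miR-23/27/24 transcripts, miR-27a and miR-27b had shares on replicate 1 of 0.538 and 0.632 times their mean on replicates 2 and 3. The starred arms miR-24-1* and miR-24-2* stood at 0.575 and 0.565 times. miR-23a, miR-23b and miR-24 stood at 1.13, 1.12 and 0.976 times. In the miR-99b-let-7e-125a transcript all 3 entries were higher on replicate 1, at 1.95, 1.80 and 2.24 times, while their paralogs miR-99a, let-7c and miR-125b-5p stood at 1.46, 1.20 and 0.840 times. Among the neighbouring miR-532 and miR-362 hairpins, miR-532-5p, miR-532-3p and miR-362-5p stood at 1.52, 2.23 and 1.74 times and miR-362-3p at 0.983 times. Of the entries named here, miR-24-1*, miR-24-2*, miR-99a, miR-532-3p, miR-362-5p and miR-362-3p lay below the brightest viral entry on every array. miR-532-5p and miR-125b-5p were not above it on every array. Ratios of such dim entries may carry background and are given as values only.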
